A study of Rattus norvegicus with 45 samples.

Results

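The effect of risperidone in striatum was set against its effect in frontal cortex of the same rats. In each rat, the frontal cortex level of a probe set was subtracted from its striatum level on the log2 scale, and this difference was compared between 5 rats given risperidone and 5 rats given vehicle. Of the 45 arrays of the series, 20 entered, those of frontal cortex and striatum from these 10 rats, and the arrays of a rat were matched by its animal number in the sample labels. The rats were males of the SD (Sprague-Dawley) strain, 9 to 11 weeks old when an osmotic minipump was implanted, and received risperidone at 5 mg/kg/d, or dilute acetic acid in water as vehicle, for 21 days. A further 5 rats of the same kind received haloperidol at 0.25 mg/kg/d and are described last. The study thus holds 1 dose, 1 time and 1 sex, and its tissue blocks hold all cell types of a region. A value below 0 means that risperidone minus vehicle was lower in striatum than in frontal cortex.

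Risperidone blocks dopamine D2-type receptors and serotonin 2A receptors. Striatum is built mostly of GABAergic projection neurons under dense dopamine input, which either carry the receptor Drd1 with substance P or the receptor Drd2 with enkephalin. In the neurons that carry Drd1, this receptor acts through the olfactory-type G protein on cyclic AMP and protein kinase A. Frontal cortex is built mostly of glutamatergic pyramidal neurons, receives sparser dopamine input and carries many serotonin 2A receptors. In both regions, firing neurons switch on immediate early genes within minutes.

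Tissue identity was checked before the comparison. The striatal genes Ppp1r1b, Drd2, Adora2a, Penk and Rgs9 were higher in striatum than in frontal cortex in 10 of 10 rats, with Ppp1r1b, the phosphoprotein DARPP-32, higher by 3.24 to 4.46 log2. The pyramidal neuron genes Slc17a7, Tbr1 and Neurod6 were lower in striatum in 10 of 10 rats, but the distance for Slc17a7, the vesicular glutamate transporter of cortex, ran from -5.10 to only -0.40. Some libraries stood apart in marker lists. In the striatum library of risperidone rat 3, the mean of 26 pyramidal neuron markers was 8.62, against 7.20 to 7.59 in vehicle striatum. In the same library, the mean of 27 markers of striatal projection neurons was 10.10, against 11.05 to 11.22 in vehicle striatum. In the frontal cortex libraries of risperidone rats 2 and 5, the mean of 13 markers of olfactory bulb and neuroblasts was 9.56 and 9.27, against 7.61 to 7.79 in vehicle cortex. Results that rest on these rats are therefore also given without risperidone rats 2, 3 and 5. In such tissue blocks, fewer cells of a type and less RNA per cell cannot be told apart.

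**Figure D1:**
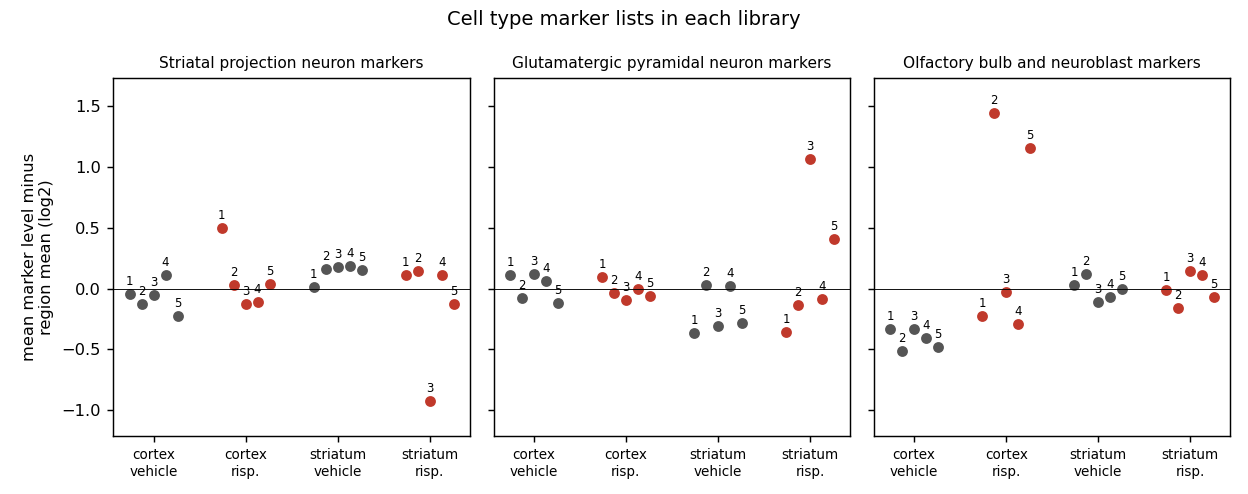
Mean log2 level of 3 marker lists in each library, as the deviation from the mean of all libraries of the region (vertical axis), by region and treatment, with the rat number beside each point (black, vehicle; red, risperidone). The striatum library of risperidone rat 3 stands lowest in striatal markers and highest in pyramidal markers, and the cortex libraries of risperidone rats 2 and 5 stand highest in olfactory bulb markers.

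Many genes responded differently by estimate in the regions, but no difference passed the test. Of 18609 probe sets tested, 0 (0%) were called by limma on the per-rat differences, where a call needed a size of 1.2-fold and a Benjamini-Hochberg adjusted p under 0.05. The smallest adjusted p was 0.0887 by limma, and 7 probe sets (0.0376%) lay under 0.1. Without adjustment, 2865 (15.4%) had a p under 0.05, of which 962 (5.17%) were higher and 1903 (10.2%) were lower in striatum. For 673 probe sets (3.62%), all 5 risperidone rats lay on one side of all 5 vehicle rats, above them for 171 (0.919%) and below them for 502 (2.7%). The half-width of the 95% interval, which is not adjusted for the number of probe sets, had a median of 0.227 log2. A call after adjustment needed a larger difference than that for the typical probe set. When the 20 arrays were fitted singly with the rat as a random block, limma called 24 (0.129%), 12 higher (0.0645%) and 12 lower (0.0645%). When all 45 arrays of the 3 regions and 3 treatments shared one such fit, 548 were called, so the count depends on the fit and the calls are read here as candidates. The excess of lower values also depends on the scaling. Of the probe sets under an unadjusted p of 0.05, 66.4% were lower as deposited, 48% after quantile normalization and 32.8% after median centring, and the median difference of all probe sets moved from -0.0399 to -0.00284 and 0.0239.

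In the fit with the rat as a block, risperidone against vehicle called 158 probe sets (0.849%) in frontal cortex and 233 (1.25%) in striatum, and 31 (0.167%) in both. These 31 had the same sign in both regions, and the largest of their differences was 0.272. Egr2, an immediate early transcription factor, differed between regions by -0.16 (95% interval -0.44 to 0.13), and it fell by 2.14 in cortex and fell by 2.30 in striatum. Homer1, a scaffold of the postsynaptic density, differed by 0.06 (-0.32 to 0.43). For Nr4a1, an orphan nuclear receptor, the difference was 0.25 (-0.04 to 0.55), and for Egr1 it was 0.22 (-0.02 to 0.46). The clock gene Per2 differed by 0.00 (-0.20 to 0.21). Sncg, which encodes gamma-synuclein, fell by 1.86 in cortex and by 1.69 in striatum, a difference of 0.17 with the wide interval of -0.39 to 0.73. Nr1d1, a clock repressor that rose in both regions, differed by -0.09 (-0.27 to 0.10), and P2rx4, an ATP-gated channel, rose by 0.53 in each. Kif1a, a kinesin of synaptic vesicle precursors, was the 1 of the 31 whose interval lay off 0, at -0.27 (-0.52 to -0.02). A further 127 probe sets were called in cortex alone and 202 in striatum alone. Since a call in one region or in both itself selects for a larger or smaller difference, nothing is read from how often these sets differed. Of them, 88 and 144 had an unadjusted p under 0.05 for the difference, against 15.4% of all probe sets.

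**Figure D2:**
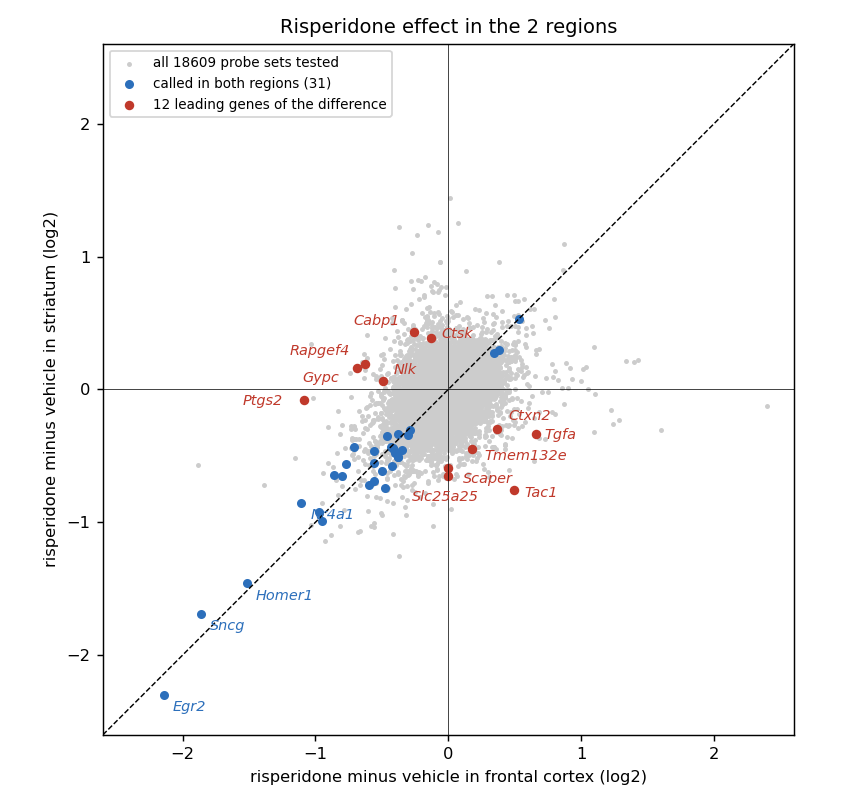
Risperidone minus vehicle (log2) in frontal cortex (horizontal axis) and in striatum (vertical axis) for 18609 probe sets, with the line of equal effects dashed. The 31 probe sets called in both regions (blue) lie near the line, and the 12 leading genes of the difference (red) lie off it, 6 below and 6 above.

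The 6 leading genes with a lower value in striatum were Slc25a25, Ctxn2, Tmem132e, Tgfa, Tac1 and Scaper. Slc25a25 encodes a calcium-regulated mitochondrial carrier of adenine nucleotides. Its log2 level in vehicle striatum was 9.34, 9.29, 9.37, 9.14 and 9.44 in rats 1 to 5, and in risperidone striatum 8.87, 8.41, 8.47, 8.91 and 8.66. In frontal cortex the vehicle rats had 8.48, 8.41, 8.66, 8.33 and 8.45, and the risperidone rats 8.57, 8.32, 8.46, 8.54 and 8.42. The groups did not overlap in striatum and shared a mean of 8.46 in cortex. The difference of the effects was -0.65 (standard error 0.09, 95% interval -0.85 to -0.46, adjusted p = 0.0887 by limma, and adjusted p = 0.0231 with the rat as a random block). The fall in striatum passed the test (log2 -0.65, adjusted p = 0.00141 by limma).

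Tac1 encodes the precursor of substance P, the peptide of the Drd1 projection neurons, and had the largest difference of the 12 leading genes. Striatum stood above cortex by 3.74, 4.15, 4.10, 4.00 and 4.16 in the vehicle rats, and by 2.59, 2.55, 2.60, 3.63 and 2.54 in the risperidone rats. Every risperidone rat lay below every vehicle rat, and rat 4 lay nearest to them. In cortex, the level was 8.0, 7.52, 8.01, 8.13 and 7.62 with vehicle and 8.60, 9.03, 7.74, 7.72 and 8.66 with risperidone, so the groups overlapped there. In striatum it was 11.75, 11.67, 12.11, 12.13 and 11.78 with vehicle and 11.19, 11.57, 10.34, 11.36 and 11.20 with risperidone, with no overlap. The difference was -1.25 (standard error 0.19, interval -1.67 to -0.83, adjusted p = 0.0887 by limma), made of 0.49 in cortex (adjusted p = 0.262) and -0.76 in striatum (adjusted p = 0.101), neither of which passed. When 1 rat at a time was left out, its adjusted p by limma ran from 0.000149, without risperidone rat 4, to 0.243. Only 1 of these runs brought it under 0.05. Without risperidone rats 2, 3 and 5 the difference was -0.92. That value keeps risperidone rat 1, whose cortex library was the highest of the cortex libraries in striatal projection neuron markers.

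Tmem132e encodes a membrane protein of neurons and sensory cells. Its striatum stood above its cortex by 1.09, 1.13, 0.92, 1.33 and 1.28 in vehicle rats and by 0.62, 0.48, 0.46, 0.66 and 0.40 in risperidone rats, without overlap. The difference was -0.63 (interval -0.83 to -0.42, adjusted p = 0.0887 by limma, 0.0188 with the block), and the fall of 0.45 in striatum passed (adjusted p = 0.00324). Ctxn2, a small membrane protein of the cortexin family, went from 1.00, 0.92, 0.65, 0.88 and 1.14 in vehicle rats to 0.09, 0.18, 0.19, 0.36 and 0.40 in risperidone rats. Here the groups were apart as well, by a difference of -0.67 (interval -0.89 to -0.45, adjusted p = 0.0887 by limma, 0.0269 with the block). Both regions contributed to the estimate for Ctxn2, 0.37 in cortex and -0.30 in striatum, and neither passed alone. Scaper, which binds cyclin A at the endoplasmic reticulum, had 0.67, 0.60, 0.94, 0.78 and 0.72 with vehicle and 0.00, -0.04, 0.15, 0.23 and 0.39 with risperidone. Its difference of -0.59 (interval -0.81 to -0.38, adjusted p = 0.114 by limma, 0.0289 with the block) came with a fall of 0.60 in striatum (adjusted p = 0.00177) and a mean of 7.12 in cortex of both groups. A second probe set of Scaper gave -0.18, so its probe sets disagree on the size.

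Tgfa, a ligand of the epidermal growth factor receptor that is strongly expressed in striatum, had striatum above cortex by 2.80, 2.47, 2.97, 2.59 and 2.95 in vehicle rats. In risperidone rats the distance was 1.93, 1.34, 1.54, 2.11 and 1.90. The groups did not overlap and differed by -0.99 (interval -1.32 to -0.66, adjusted p = 0.0887 by limma, 0.0509 with the block). A second probe set of Tgfa gave -0.68. Cortex lay at 0.66 (adjusted p = 0.0554) and striatum at -0.33 (adjusted p = 0.288), so neither effect passed in its own region.

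**Figure D3:**
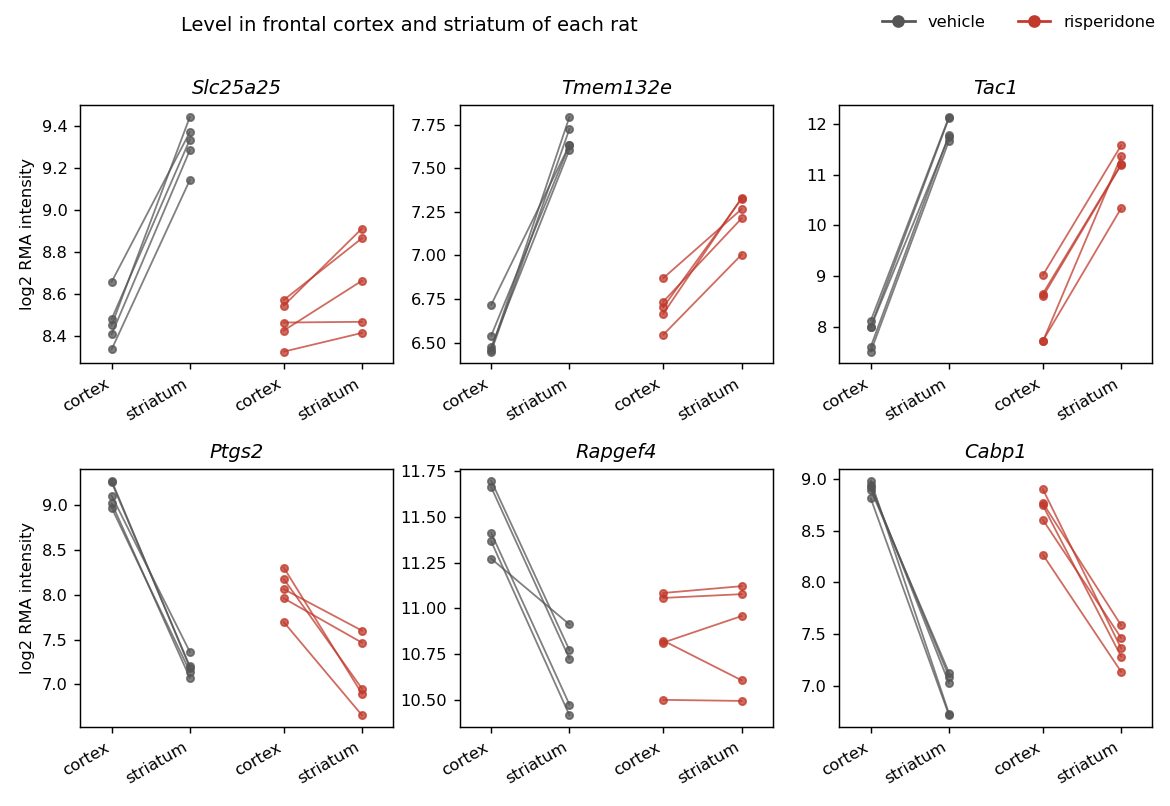
Log2 RMA intensity of 6 genes in frontal cortex and striatum, with a line for each rat (black, vehicle; red, risperidone). The rise from cortex to striatum is smaller with risperidone for Slc25a25, Tmem132e and Tac1, and the drop from cortex to striatum is smaller for Ptgs2, Rapgef4 and Cabp1.

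The 6 leading genes with a higher value in striatum were Rapgef4, Cabp1, Ptgs2, Ctsk, Gypc and Nlk. Ptgs2, the inducible cyclooxygenase that cortical pyramidal neurons express with activity, is one of the immediate early genes. Its cortex level was 9.03, 8.97, 9.11, 9.26 and 9.28 with vehicle and 8.06, 8.18, 8.30, 7.96 and 7.70 with risperidone. Its striatum level was 7.07, 7.14, 7.36, 7.20 and 7.19 with vehicle and 7.60, 6.95, 6.89, 7.46 and 6.65 with risperidone. The groups did not overlap in cortex and did so in striatum. The fall of 1.09 in cortex passed (adjusted p = 0.00136 by limma), striatum lay at -0.08 (adjusted p = 0.811), and the difference was 1.01 (standard error 0.17, interval 0.63 to 1.39, adjusted p = 0.115, 0.0293 with the block).

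Rapgef4 encodes an exchange factor for Rap proteins that cyclic AMP activates directly. In cortex it stood at 11.37, 11.70, 11.27, 11.41 and 11.66 with vehicle and at 10.81, 10.82, 11.08, 11.06 and 10.50 with risperidone. In striatum it stood at 10.42, 10.77, 10.91, 10.47 and 10.73 with vehicle and at 10.96, 10.61, 11.12, 11.08 and 10.49 with risperidone. Cortex separated the groups and striatum did not. Per rat, striatum minus cortex was -0.95, -0.93, -0.36, -0.94 and -0.94 with vehicle and 0.14, -0.22, 0.04, 0.02 and -0.01 with risperidone. The difference was 0.82 (standard error 0.12, interval 0.55 to 1.08, adjusted p = 0.0887 by limma, 0.0509 with the block), with a fall of 0.63 in cortex (adjusted p = 0.0283).

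For Nlk, a kinase of the Wnt and MAP kinase pathways, striatum minus cortex was -1.76, -1.47, -1.61, -1.90 and -1.55 with vehicle and -1.09, -1.29, -0.89, -1.10 and -1.13 with risperidone. Its difference of 0.56 (interval 0.34 to 0.78, adjusted p = 0.115 by limma, 0.0293 with the block) went with a fall of 0.50 in cortex (adjusted p = 0.00765). The 5 probe sets of Nlk ran from 0.21 to 0.56. Gypc, a glycophorin of the membrane skeleton, had -1.95, -2.28, -2.42, -2.29 and -1.96 with vehicle and -0.96, -1.24, -1.48, -1.80 and -1.17 with risperidone. Its cortex level fell by 0.69 (adjusted p = 0.0143 by limma), and the difference was 0.85 (interval 0.52 to 1.18, adjusted p = 0.115, 0.0293 with the block). In Nlk and Gypc, as in Ptgs2 and Rapgef4, the effect that passed was the one in cortex.

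Cabp1 encodes caldendrin, a calcium sensor of the postsynaptic side. Striatum minus cortex was -2.26, -1.92, -2.10, -1.84 and -1.77 with vehicle and -1.47, -1.13, -1.18, -1.54 and -1.14 with risperidone, a difference of 0.68 (interval 0.43 to 0.94, adjusted p = 0.115 by limma, 0.0437 with the block). Ctsk, a lysosomal cysteine protease, had -0.88, -1.12, -0.86, -0.87 and -0.66 with vehicle and -0.22, -0.35, -0.50, -0.38 and -0.34 with risperidone, a difference of 0.52 (interval 0.32 to 0.72, adjusted p = 0.115, 0.0896 with the block). For both genes the larger estimate was in striatum (0.43 for Cabp1 and 0.39 for Ctsk), and it did not pass there (adjusted p = 0.0507 and 0.0601 by limma). Without risperidone rats 2, 3 and 5, which leaves risperidone rats 1 and 4, values of the 12 leading genes ran from -0.92 for Tac1 to 1.46 for Ptgs2. Their signs could not change, because the risperidone and vehicle rats did not overlap for any of them. A single rat decided whether some of them passed. Without risperidone rat 4, limma on the per-rat differences called Tac1, Slc25a25 (adjusted p = 0.0282), Tgfa (0.0328) and Gypc (0.0328), and also Htr2c (0.0204) and Reln (0.0328), which are described with their lists. Without vehicle rat 3 it called Rapgef4 (0.00528), Ctxn2 (0.0469) and Tmem132e (0.0489). Leaving out any other single rat gave 0 calls, with a smallest adjusted p by limma of 0.0715 to 0.243.

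Promoters of 3 of these genes are shown because they are Slc25a25 and Ptgs2, activity-regulated genes with effects in different regions, and Tac1, the neuropeptide with the largest difference of the 12. Each sequence is from RefSeq, build GRCr8, and runs from 250 bases before the gene's start to 50 bases from it, 5′ to 3′ on the gene's strand, at chr3:36116532-36116831 (minus strand), chr13:64713813-64714112 (plus) and chr4:36645333-36645632 (plus). Capitals mark matches, on either strand, to the cyclic AMP response element TGACGTCA, its half-site TGACG, the E-box CACGTG, the AP-1 site TGANTCA and the Egr site GCGTGGGCG, where every full cyclic AMP response element also holds the half-site. Of 33469 rat promoters of this length, 1.83%, 21.2%, 6.42%, 7.33% and 0.544% hold them.
Slc25a25: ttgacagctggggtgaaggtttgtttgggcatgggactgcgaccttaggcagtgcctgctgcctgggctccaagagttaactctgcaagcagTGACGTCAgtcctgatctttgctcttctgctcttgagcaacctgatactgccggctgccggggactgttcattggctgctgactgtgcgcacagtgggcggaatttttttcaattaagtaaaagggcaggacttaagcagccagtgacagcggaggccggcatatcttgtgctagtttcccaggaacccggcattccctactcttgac
Ptgs2: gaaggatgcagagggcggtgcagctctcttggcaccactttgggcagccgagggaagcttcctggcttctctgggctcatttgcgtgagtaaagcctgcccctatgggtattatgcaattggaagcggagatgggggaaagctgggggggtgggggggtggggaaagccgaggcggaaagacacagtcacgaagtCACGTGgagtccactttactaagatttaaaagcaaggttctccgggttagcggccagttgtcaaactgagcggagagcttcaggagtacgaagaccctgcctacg
Tac1: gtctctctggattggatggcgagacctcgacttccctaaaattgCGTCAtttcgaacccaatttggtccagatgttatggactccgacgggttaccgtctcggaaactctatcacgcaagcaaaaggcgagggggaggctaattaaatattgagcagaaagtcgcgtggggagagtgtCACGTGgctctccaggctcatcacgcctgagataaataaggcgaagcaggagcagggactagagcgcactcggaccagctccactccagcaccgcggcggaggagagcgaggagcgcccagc
Slc25a25 holds a full cyclic AMP response element whose first base lies at -158 from the start. Ptgs2 holds an E-box at -55, and Tac1 holds a half-site at -206 and an E-box at -72. These are matches of letters and were not tested as sites.

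The list of immediate early and activity-regulated genes had 23 measured members, of which 6 were higher and 2 lower in striatum at an unadjusted p under 0.05, and the other 15 did not reach that level. These counts, and those of every list below as deposited with all 10 rats, stand against 446 (4.35%) and 1155 (11.3%) of all 10248 genes (15.6% together). Counts under an alternative stand against all genes under that alternative. All genes had 384 higher and 849 lower without risperidone rat 3, and 518 and 1044 without risperidone rats 2, 3 and 5. They had 628 and 735 after quantile normalization, 897 and 517 after median centring, and 356 and 822 with the pyramidal marker covariate described below. The list's median difference was 0.14, against -0.05 for all genes. The list's median effect was -0.40 in cortex and -0.30 in striatum. Fos, the founding member of the class, fell by 1.89 in cortex (adjusted p = 0.0055 by limma) and lay at -0.57 in striatum, a difference of 1.32 (interval 0.64 to 1.99). Arc, which acts in AMPA receptor trafficking, fell by 1.16 in cortex (adjusted p = 0.0152) and lay at -0.51 in striatum, a difference of 0.64 (0.29 to 1.00). Bdnf (1.17), Dusp1 (0.42), Gadd45b (0.42) and Ptgs2 were also higher, and Slc25a25 and Tiparp (-0.22) were lower. The list therefore holds genes with a fall called in both regions, such as Egr2 and Homer1, genes with a fall called in cortex, such as Fos, Arc and Ptgs2, and Slc25a25, with a fall called in striatum. Without risperidone rats 2, 3 and 5 the list had 6 higher and 1 lower, with a median of 0.09.

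Markers of striatal projection neurons lay to the lower side. Of 27 measured, 0 were higher and 11 were lower at an unadjusted p under 0.05, with a median of -0.38. The list's median effect was 0.21 in cortex and -0.29 in striatum. Besides Tac1, the lower members were Strip2 (-0.88), Actn2 (-0.75), the adenosine receptor Adora2a (-0.73), the dopamine receptor Drd1 (-0.63), the orphan receptor Gpr6 (-0.57), the phosphodiesterase Pde1b (-0.56), the olfactory-type G protein Gnal (-0.55), Rarb (-0.55), Foxp2 (-0.51) and Rasgrp2 (-0.39). They include markers of both projection neuron types, Drd1 and Tac1 of the one and Adora2a and Gpr6 of the other. Drd2, the receptor that risperidone blocks, lay at -0.57 with an interval of -1.27 to 0.13, and Ppp1r1b lay at -0.32 (-0.79 to 0.16). Scn4b, a sodium channel subunit of these neurons, lay at 0.30. The summed level of this list was lowest in the striatum library of risperidone rat 3 and highest among cortex libraries in that of risperidone rat 1. Without risperidone rat 3 the list had 8 lower and a median of -0.32, and without risperidone rats 2, 3 and 5 it had 9 lower and a median of -0.32. Both of these keep risperidone rat 1, so they do not check the part of its cortex library.

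Genes of cyclic AMP and protein kinase A signaling, which dopamine receptors engage, had 1 higher and 6 lower of 43 measured, a share near the 15.6% of all genes, and a median of -0.05, the same as all genes. After median centring 3 were higher and 3 lower, and without risperidone rats 2, 3 and 5, 5 were higher and 7 lower. Rapgef4 was higher. Pde1b, Gnal, Ppp1r1a, Prkar2b (-0.31), Pde7b (-0.28) and Crtc2 (-0.24) were lower. Ppp1r1a, which inhibits protein phosphatase once protein kinase A phosphorylates it, fell by 0.44 in striatum (adjusted p = 0.0084 by limma), and its difference was -0.43 (interval -0.69 to -0.18). Prkar2b is a regulatory subunit of the kinase, Pde7b a phosphodiesterase and Crtc2 a coactivator of CREB. Pde1b and Gnal are also in the list of striatal projection neuron markers.

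Of 15 measured dopamine, serotonin and adrenergic receptors, 2 were higher and 2 lower, and 1 and 1 without risperidone rats 2, 3 and 5. Adra1d, an alpha-1 adrenergic receptor, lay at 0.68, and Htr2a, the serotonin receptor that risperidone blocks, at 0.56. Drd1 was lower, as was Htr2c, a serotonin receptor of several brain regions. For Htr2c, striatum stood above cortex by 2.57, 2.57, 2.09, 2.29 and 2.51 with vehicle and by 1.41, 0.95, 1.35, 2.29 and 1.41 with risperidone. Risperidone rat 4 lay inside the vehicle range and the other four lay below it. The difference was -0.92 (interval -1.36 to -0.48), -0.79 by its second probe set and -0.56 without risperidone rats 2, 3 and 5.

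Markers of pyramidal neurons lay to the higher side in these libraries. Of 26 measured, 6 were higher and 2 lower, with a median of 0.35. Neurod6, a transcription factor of cortical projection neurons, lay at 1.31, and Nptx1, a pentraxin of excitatory synapses, at 1.06. Cux2 (0.56), Rtn4r (0.39), Mef2c (0.39) and Lmo4 (0.21) were higher as well, and Foxp2 and Tle4 (-0.29) were lower. Lmo3, a LIM-domain cofactor, lay at -0.42 by a probe set that was not counted. The direction of the list rested on some of the libraries that stood apart. Without risperidone rat 3 it had 3 higher and 4 lower with a median of 0.19, and without risperidone rats 2, 3 and 5 it had 1 higher and 1 lower with a median of -0.01. With the list's own mean striatum minus cortex value per rat as a covariate, the median was 0.10. That covariate is built from these same genes, so this value cannot check the list.

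Olfactory bulb and neuroblast markers had 0 higher and 4 lower of 13 measured, with a median of -0.76, the lowest of the 26 lists. The 4 were Cdhr1 (-2.52), a cadherin of the bulb's mitral cells, and the transcription factors Pbx3, Dlx5 (-1.10) and Tshz1 (-0.85). For Pbx3, striatum stood above cortex by 2.68, 2.59, 2.65, 2.68 and 3.01 with vehicle and by 2.14, -0.69, 0.71, 2.34 and -0.42 with risperidone. Risperidone rats 2 and 5, whose cortex libraries were high in these markers, had the lowest values. The difference for Pbx3 was -1.91 (interval -3.03 to -0.78) and -0.48 without risperidone rats 2, 3 and 5. Without those rats the list had 1 higher and 1 lower and a median of -0.02.

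Interneuron markers had 2 higher and 3 lower of 14 measured. Vip (1.40), a neuropeptide, and the potassium channel Kcnc1 (0.30) were higher, and Slc32a1 (-0.41), the vesicular GABA transporter, Slc5a7 (-0.34), the choline transporter, and Reln were lower. Reln encodes reelin, a secreted protein of cortical interneurons. Its striatum minus cortex value was 0.34, 0.29, 0.18, 0.25 and 0.00 with vehicle and -0.32, -1.04, -0.85, -0.23 and -0.84 with risperidone. The groups did not overlap and differed by -0.87 (interval -1.2 to -0.54, adjusted p = 0.115 by limma). Rats 2, 3 and 5 were the lowest, and without them the difference was -0.49. Without those rats the list had 1 higher and 2 lower, and with the pyramidal marker level as a covariate it had 1 higher and 1 lower and its median moved from 0.09 to -0.11.

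**Figure D4:**
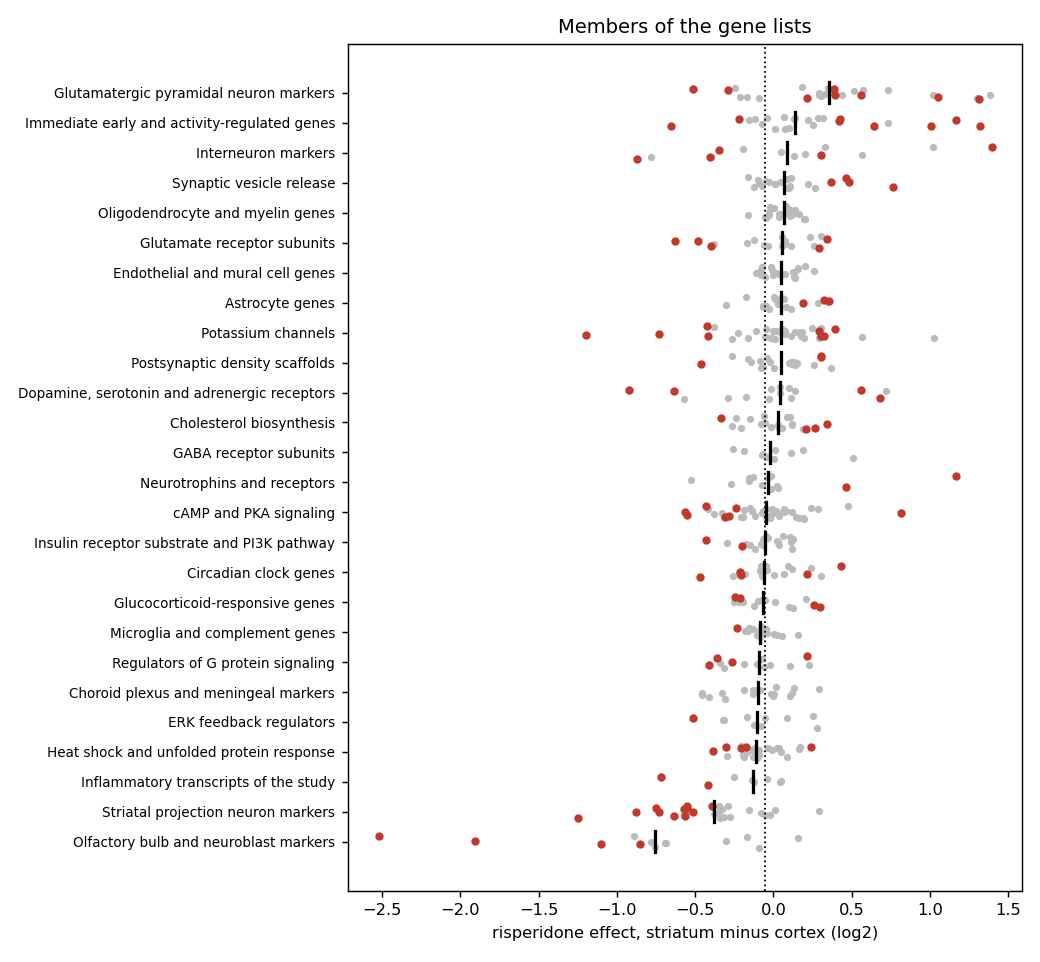
Difference of the risperidone effect, striatum minus frontal cortex (log2, horizontal axis), for each measured gene of 26 lists, with the list median as a black bar and the median of all genes dotted. Red points have an unadjusted p under 0.05, and the medians run from -0.76 for olfactory bulb markers to 0.35 for pyramidal neuron markers.

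Glial and vascular lists were counted at an unadjusted p under 0.05 as well. Of 22 oligodendrocyte and myelin genes, 20 endothelial and mural cell genes and 18 choroid plexus and meningeal markers, 0 passed that level by the probe set counted, and 0 were called by limma in either fit of these rats. Mean levels of the choroid plexus and meningeal markers ran from 6.99 to 8.99 in vehicle striatum, highest in rat 1. In risperidone striatum they ran from 7.12 to 8.49, highest in rat 5. With that spread, the count of 0 for this list says little about a difference. Without risperidone rats 2, 3 and 5, 3 oligodendrocyte genes were lower and the median of that list went from 0.07 to -0.27. Other probe sets of Bmp6, a ligand made in the meninges, and Slco1a4, an endothelial transporter, lay at 0.31 and 0.45. Mobp, a myelin protein, lay at 0.20 (interval -0.15 to 0.54). Of 19 astrocyte genes, Gjb6 (0.36), a gap junction connexin, Sparcl1 (0.33), a secreted synaptogenic protein, and Glul (0.19), glutamine synthetase, were higher. Slc1a3, the glial glutamate transporter, rose by 0.58 in striatum by one probe set (adjusted p = 0.00446 by limma), with a difference of 0.55 (0.29 to 0.81), but other probe sets of Slc1a3 gave values as low as -0.03. Of 17 microglia and complement genes, C1qc, a chain of complement C1q, was lower at -0.23 (-0.39 to -0.08), and without those rats 4 of the list were lower, with a median of -0.19 against -0.08.

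Of 8 inflammatory transcripts taken from the study, Cebpb and Hilpda were lower, against 11.3% of all genes, and without risperidone rats 2, 3 and 5, 4 of them were lower, with a median of -0.21 against -0.13. Cebpb encodes a transcription factor of the acute phase response. It had 0.47, -0.01, 0.34, 0.06 and 0.21 with vehicle and -0.38, -0.65, -0.96, -0.60 and 0.06 with risperidone, so that rat 5 alone lay inside the vehicle range. Its difference was -0.72 (interval -1.08 to -0.36), called with the rat as a random block (adjusted p = 0.0389 by limma) and not otherwise, with a fall of 0.65 in striatum (adjusted p = 0.00446). Hilpda, a lipid droplet protein of hypoxia, lay at -0.42. Of 21 genes of cholesterol biosynthesis, Sc5d (0.34), Msmo1 (0.27) and Insig1 (0.21) were higher and Insig2 (-0.33) was lower, the pair of Insig genes thus lying on opposite sides. Together they were 19% of the list, against 15.6% of all genes. Without risperidone rats 2, 3 and 5 this list had 1 higher and 5 lower, and its median went from 0.03 to -0.12. Of 28 genes for chaperones and the stress response of cytosol and endoplasmic reticulum, 1 was higher and 4 lower as deposited (17.9%, against 15.6% of all genes). The genes counted were 2 and 2 after quantile normalization and 3 and 1 after median centring. The direction of this count thus depends on the scaling, as it does for all genes. Hsp90ab1, a cytosolic chaperone, was not among these by its brighter probe set (-0.10), and by its other probe set it fell by 0.30 in striatum (adjusted p = 0.0216 by limma), with a difference of -0.35 (-0.52 to -0.18).

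Of 22 synaptic vesicle genes, 4 were higher and 0 lower, a share of 18.2% against 15.6% of all genes. Without risperidone rats 2, 3 and 5 the count was 0 higher and 1 lower, with a median of -0.02 against 0.07. The 4 were Stx1a (0.76), a syntaxin of the fusion machinery, Rims1 (0.48), an active zone protein, Vamp1 (0.46), a synaptobrevin, and Syp (0.37), synaptophysin. All 4 stood lower in striatum than in cortex in the vehicle rats. Rims1 lay at 0.12 without those rats. Of 19 glutamate receptor subunits, Gria3 (0.29) and Grin2a (0.35) were higher and Grm4 (-0.63), Gria1 (-0.48) and Grm5 (-0.40) were lower, against 2 higher and 1 lower without those rats. By another probe set, which was called in both regions, Gria3 lay at -0.05 (-0.28 to 0.18), so its probe sets disagree. Gria1, an AMPA receptor subunit, fell by 0.57 in striatum (adjusted p = 0.0109 by limma). Grm4, a presynaptic metabotropic receptor, had 1.37, 1.43, 1.5, 1.38 and 1.63 with vehicle and 1.04, 0.84, 0.52, 1.21 and 0.55 with risperidone, without overlap, and lay at -0.33 without rats 2, 3 and 5. Of 10 GABA receptor subunits, 0 had an unadjusted p under 0.05 by the probe set counted, and another probe set of Gabrb2 lay at -0.42. Of 20 scaffolds of the postsynaptic density, Camk2a (0.31) and Cnksr2 (0.30) were higher and Grip1 (-0.46) was lower, a share close to the 15.6% of all genes. Dlg4, the scaffold PSD-95, ran from -0.36 to 0.30 over its 4 probe sets.

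Of 36 potassium channel genes, 4 were higher and 4 lower, and 2 and 3 without risperidone rats 2, 3 and 5. Kcnj16, an inward rectifier, lay at -1.2 (interval -2.0 to -0.39) and rose by 1.40 in cortex (adjusted p = 0.0277 by limma). Kcna4, a channel of the A-type current, lay at -0.73, and Kcnd1 (-0.43) and Kcnip2 (-0.42), a channel and a channel partner of the same current, were also lower. Kcna1 (0.29), Kcnn1 (0.32), Kcnj9 (0.39) and Kcnc1 were higher. Another probe set of Kcnip2 gave -0.50, and -0.26 without risperidone rats 2, 3 and 5.

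Of 20 circadian clock genes, Bhlhe40 (0.43) and Csnk1e (0.22) were higher and Cry1 (-0.47), Per1 (-0.21) and Bmal1 (-0.21) were lower. Cry1, a repressor of the clock, fell by 0.55 in striatum (adjusted p = 0.00324 by limma), and its difference had an interval of -0.74 to -0.19. Bmal1, a clock activator, fell by 0.41 in striatum (adjusted p = 0.0084). The clock list had 3 higher and 3 lower without risperidone rats 2, 3 and 5, and 3 higher and 1 lower after median centring. Of 10 feedback regulators of ERK signaling, Spry3, a Sprouty inhibitor, was lower at -0.51 (-0.76 to -0.27), with a fall of 0.60 in striatum (adjusted p = 0.00177 by limma). Its values were 0.30, 0.36, 0.35, 0.56 and 0.57 with vehicle and -0.34, -0.18, -0.21, 0.20 and 0.10 with risperidone. The groups did not overlap. The phosphatase Dusp6, which fell in both regions, differed by 0.21 (-0.04 to 0.46).

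In the remaining lists, the share under an unadjusted p of 0.05 ran from 10% to 28.6%, against 15.6% of all genes. It was 15.4% for neurotrophins and receptors and 10% for the insulin and PI3K list, near or below that share. Of 14 regulators of G protein signaling, 1 was higher and 3 were lower, among them Rgs10 (-0.36). Without risperidone rats 2, 3 and 5 it had 0 higher and 0 lower, and Rgs10 lay at -0.22. Of 15 glucocorticoid-responsive genes, Plin4 (0.26), a lipid droplet protein, and Nr3c1 (0.30), the receptor itself, were higher, and Ddit4 (-0.24) and Per1 were lower. Of 13 neurotrophins and receptors, Bdnf and Gfra2 (0.46) were higher, with an interval of 0.01 to 2.32 for Bdnf. Without risperidone rats 2, 3 and 5 that list had 0 higher and 2 lower, and Gfra2 lay at 0.27. Of 20 genes of insulin receptor substrates and PI3K signaling, Foxo1 (-0.43) and Pik3ip1 (-0.20) were lower. Without those rats 1 was higher and 1 lower, and Foxo1 lay at -0.13.

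Of the 24 probe sets called with the rat as a random block, 7 carried no gene name, 9 were those of genes described above and the other 8 were named after their values were seen. Crhbp (0.92), which binds corticotropin-releasing hormone, Vipr1 (0.91), a receptor of the peptide VIP, and Ptprj (0.52), a receptor phosphatase, were higher in striatum. Vipr1 rose by 0.68 in striatum (adjusted p = 0.0138 by limma), and Ptprj fell by 0.43 in cortex (adjusted p = 0.0088). Wdr33, a factor of mRNA polyadenylation, lay at -0.91 with a fall of 1.03 in striatum (adjusted p = 0.0007), but its second probe set lay at -0.03 (interval -0.20 to 0.14). Marcks (-0.68 by 1 of its 5 probe sets and -0.44 to -0.23 by the others), a substrate of protein kinase C, Dnmbp (-0.60), an exchange factor for Cdc42, Nrsn2 (-0.42), a neuronal membrane protein, and Banf1 (-0.38), a chromatin-binding protein, were lower. Dnmbp fell by 0.52 in striatum (adjusted p = 0.0018 by limma), while Nrsn2 and Banf1 rose by 0.35 and 0.25 in cortex (adjusted p = 0.0138 and 0.0225).

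**Figure D5:**
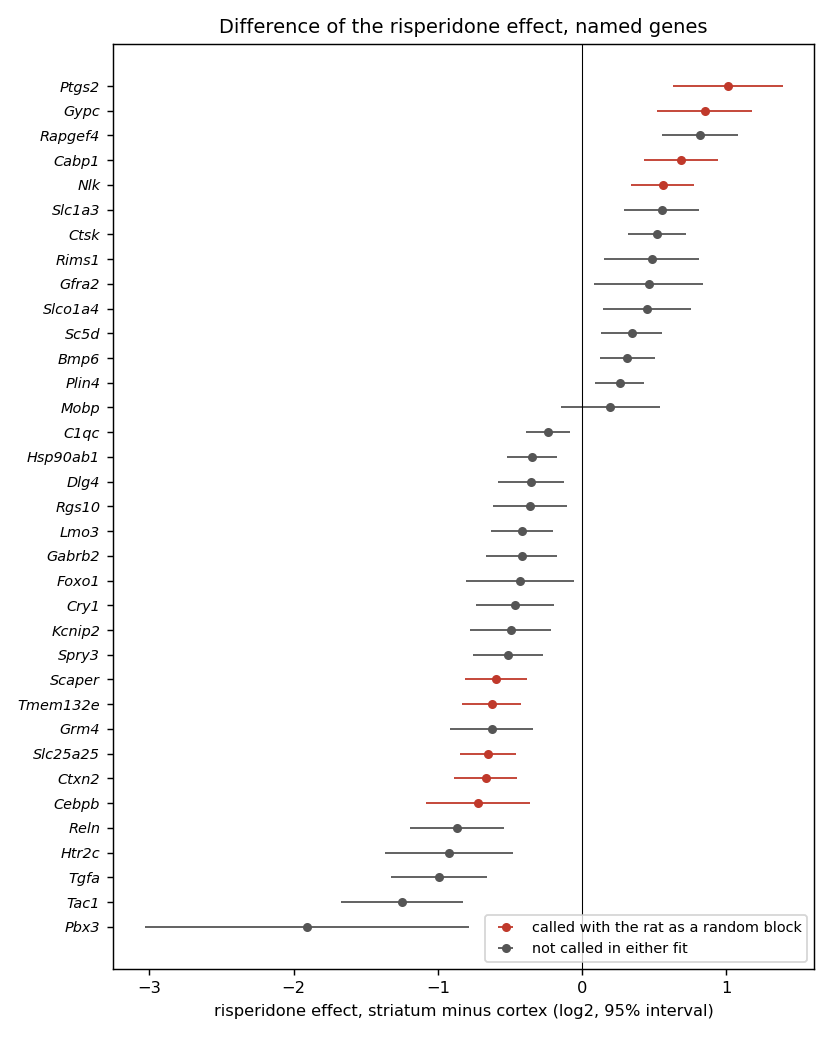
Difference of the risperidone effect, striatum minus frontal cortex (log2, horizontal axis), for the 35 named genes, with bars for the 95% interval of 5 rats per group. Red genes were called with the rat as a random block, and Pbx3, with the lowest value, has the widest interval.

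Haloperidol, which blocks mainly dopamine D2-type receptors, was compared with the same vehicle rats in a fit of the per-rat differences of all 15 rats, so the values of the drugs are not independent. In that fit limma called 0 probe sets for haloperidol, with 902 (4.85%) at an unadjusted p under 0.05, and 2 for risperidone, with 3117 at that level. Slc25a25 lay at -0.65 with risperidone and -0.49 with haloperidol, Tmem132e at -0.63 and -0.40, and Tgfa at -0.99 and -0.68. Among the higher genes, Gypc lay at 0.85 with each drug, Ctsk at 0.52 and 0.61, Ptgs2 at 1.01 and 0.78, Cabp1 at 0.68 and 0.56, Rapgef4 at 0.82 and 0.54 and Nlk at 0.56 and 0.37. The drugs lay farther apart for Tac1 (-1.25 and -0.42), Ctxn2 (-0.67 and -0.28), Scaper (-0.59 and -0.16) and Wdr33 (-0.91 and -0.02). For Tac1, striatum stood above cortex by 3.27, 4.00, 4.07, 3.51 and 3.20 in haloperidol rats, inside or below the vehicle range and, apart from risperidone rat 4, above the risperidone rats. Risperidone against haloperidol was itself tested in the fit of 15 rats, and limma called 0 of 18609, with 1738 (9.34%) at an unadjusted p under 0.05 and a smallest adjusted p of 0.148. A difference between the drugs was thus not shown for any of these genes.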

How the data were processed

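RNA of brain regions of rats was measured on Affymetrix arrays. The authors deposited linear intensities, made per the submitters' processing notes with Robust Multi-array Average (RMA, R 2.7.2). RMA subtracts background, equalizes the distribution of arrays and gives 1 value for the probes of each set. The sources used here do not give whether all regions were normalized in one run. Arrays have no read depth, and their number limits the precision. Median intensity ran from 89.9 to 93.1 in frontal cortex and from 88.2 to 92.1 in striatum.

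Intensities were put on the log2 scale here. Of 31099 probe sets, 57 control sets were left out, and the 18609 whose mean reached the 40th percentile were tested. Of these, 14116 carry 1 gene, 306 several and 4187 none (10248 genes). The per-rat differences were tested with limma 3.58.1 in R 4.3.3 (12.1 degrees of freedom) with Benjamini-Hochberg adjustment. Effects within a region come from the fit of 20 arrays in which the rat was a random block, with a consensus correlation of 0.216 and 19.8 degrees of freedom. Tables were read with data.table (version 1.17.8). The animal number pairs the regions: deviations from the group mean correlated at 0.159 to 0.434 within a rat (median 0.34), and 9 of 10 rats matched themselves best. Between rats of the same treatment the median was -0.0819. Subtracting the group mean itself pushes that value below 0, so it is no independent baseline.

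The genes and lists were chosen with earlier results of these data known. The rule named up to 12 called genes per side, filled to 6 per side by smallest p, and in each list the called members or the one with the smallest p. Other genes were named after their values were seen. Named genes use the probe set with the smallest p, and list counts use the one with the highest mean. On simulated data of this comparison, a 1.5-fold change was called in 74 of 100 probe sets and a 2-fold change in 92 of 100, with 8 false calls among 18609. The simulated noise was independent between probe sets, so these rates do not carry over to the real data. There Tac1, at a log2 difference of -1.25, was not called. Alternatives covered the fit, filter, scaling, an added 16 before the log, trend and robust estimation, a marker covariate, 1 probe set per gene and rats left out. Promoters were matched for 11 of the 12 leading genes. Hippocampus arrays entered the fit of all 45 arrays and the mean levels used for the filter and for the probe set of a list gene. Human samples were not analysed here.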

Additional observations from a re-analysis of the deposited data

Results flagged for a closer look

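In 3 groups of 5 rats, a single rat lay far from the other four for a named gene, out of 70 groups examined, and chance alone gives such a gap in about 1 of 20 groups. For Rapgef4, vehicle rat 3 had a striatum minus cortex value of -0.359, and the other vehicle rats had -0.950 to -0.926. For Tac1, risperidone rat 4 had 3.63, and the other risperidone rats had 2.54 to 2.60. For Pbx3, vehicle rat 5 had 3.01, and the other vehicle rats had 2.59 to 2.69. Each of these values was kept in the comparison.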

How the results depend on the processing

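The number of probe sets called for the difference by limma was 0. It was 24 with the rat as a random block of 20 arrays, 548 with the rat as a random block of 45 arrays, 2 with all 15 rats in the fit and 4 with 1 probe set per gene. It ran from 0 to 10 when 1 rat was left out, with 4 without vehicle rat 3 and 10 without risperidone rat 4. It was 4 without risperidone rats 2, 3 and 5, and 1 when vehicle rat 1, whose striatum was high in choroid plexus and meningeal markers, was left out as well, an alternative chosen after seeing the data. The other alternatives gave 0. The lower count of 1903 at an unadjusted p under 0.05 became 1223 with quantile normalization, 894 with median centring and 1255 with 1 probe set per gene, and ran from 1326 to 2361 when 1 rat was left out. The higher count of 962 became 1633 without a filter, 1831 with median centring and 465 with 1 probe set per gene, and ran from 697 to 1115. Replicate numbers only number the rats across treatments. With the replicate number as a block, 0 were called, with 895 higher and 1568 lower, and pairs of rats with the same number correlated at -0.167 to 0.0267. Risperidone against haloperidol gave 0 calls throughout. Of the named genes, Mobp changed sign, from 0.20 to -0.0348 without risperidone rats 2, 3 and 5 and to -0.0270 when vehicle rat 1 was left out too. The cause of these changes was not tested, and some alternatives also held fewer genes or fewer rats.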
